A study of Mus musculus with 3 samples.

Results

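Transforming growth factor beta (TGF-beta) is a secreted signal with 3 mammalian ligand genes, and 9 genes of this pathway were followed through the cells of mouse dorsal skin: the ligands Tgfb1, Tgfb2 and Tgfb3, the receptors Tgfbr1 and Tgfbr2, the co-receptor Tgfbr3 and the response genes Smad7, Skil and Tgfbi. The genes were taken by symbol, and all 9 were found among the 31053 features. The data are 3 droplet single-cell RNA libraries, 1 per group, of skin dissociated with collagenase. The young control was 2.5 months old and carried floxed Yap1 and Wwtr1 alleles (Yap1 fl/fl; Wwtr1 fl/fl) and no Cre. The young YAP/TAZ knockout had the same age and floxed alleles plus R26-CAG-CreER, a tamoxifen-activated Cre recombinase under a ubiquitous promoter, so the design does not limit deletion to fibroblasts. Tamoxifen (0.11 mg/g, by gavage) was given to both young groups for 4 weeks, with 2 dosing days in each. The old control was wild-type, untreated and 24 months old, so age, floxed alleles and tamoxifen differ together between the controls. How many animals went into a library is not stated in the labels. YAP and TAZ (the product of Wwtr1) are co-activators of transcription that the Hippo pathway restrains. The series title places the question in fibroblasts.

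TGF-beta is stored outside cells in a latent form and, once freed, binds the type II receptor, which recruits and phosphorylates the type I receptor. The type I receptor phosphorylates Smad2 and Smad3, which enter the nucleus with Smad4. In skin the pathway is known for driving matrix production by fibroblasts, for restraining keratinocyte growth and for its part in the hair cycle and in wound repair.

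The promoters of Tgfb2 and Tgfbi are shown because these 2 genes passed the size rule, defined with the comparisons, in more classes of knockout cells (4 and 3) than the other genes. RefSeq windows on GRCm38.p6 were searched for 5 of the 9 genes. The promoters of Tgfb3, Tgfbr3, Smad7 and Skil were not searched, so nothing is said of motifs there. The 250 bases before the RefSeq start of Tgfb2 lie at chr1:186705990-186706239 on the minus strand, and those of Tgfbi at chr13:56609336-56609585 on the plus strand. The GENCODE M21 start of Tgfbi, 56609523, lies inside its window, so the window's last bases are within the gene in that annotation. Capitals mark CAGAC or its reverse complement GTCTG, a Smad half-site.
Tgfb2: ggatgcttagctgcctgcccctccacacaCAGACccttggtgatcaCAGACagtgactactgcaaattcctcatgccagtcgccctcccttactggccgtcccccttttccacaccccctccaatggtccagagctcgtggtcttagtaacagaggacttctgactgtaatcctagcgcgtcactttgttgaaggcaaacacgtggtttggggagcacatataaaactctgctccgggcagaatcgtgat
Tgfbi: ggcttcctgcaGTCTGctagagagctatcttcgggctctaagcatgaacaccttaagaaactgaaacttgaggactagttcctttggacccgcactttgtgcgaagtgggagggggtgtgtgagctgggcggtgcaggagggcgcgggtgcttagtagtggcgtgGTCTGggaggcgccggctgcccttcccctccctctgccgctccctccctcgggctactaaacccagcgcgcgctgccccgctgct
Each window held 2 such matches, and 42.2% of all 32851 windows of the same length held at least 1. The TEAD motif CATTCC (12.6% of all windows), the AP-1 motif TGANTCA (6.75%) and the palindrome GTCTAGAC (0.167%) were searched on both strands. None of these 3 letter runs occurred in the windows of Tgfb1, Tgfb2, Tgfbr1, Tgfbr2 or Tgfbi. A match is a run of letters and was not shown to be bound.

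On GRCm38 with the GENCODE M21 annotation, Tgfb1 lies on chromosome 7 from 25687002 to 25705077, Tgfb2 on chromosome 1 from 186622792 to 186705989 and Tgfb3 on chromosome 12 from 86056745 to 86079041. Tgfbr1 lies on chromosome 4 from 47353222 to 47414931, Tgfbr2 on chromosome 9 from 116084293 to 116175360 and Tgfbr3 on chromosome 5 from 107106570 to 107289629. Smad7 lies on chromosome 18 from 75367529 to 75395935, Skil on chromosome 3 from 31095058 to 31122577 and Tgfbi on chromosome 13 from 56609523 to 56639562. Only Tgfbr3 overlaps other annotated genes on its own strand (Gm43422, Gm43423 and Gm42900), and the rule that assigned reads there is not stated in the labels. Tgfb2, Tgfb3 and Tgfbr3 also overlap genes on the opposite strand, and whether the counting used the strand is not stated either.

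Values given in threes follow the order young control, knockout, old control. The total of unique molecular identifiers (UMIs, 1 per captured transcript) was 95274423, 57767761 and 52579262, and 10784, 8655 and 11108 cells were kept. Median mitochondrial shares over all deposited barcodes were 5.58%, 18.6% and 9.41%, and 62.4% of knockout barcodes were over the 15% limit. Pairs of libraries shared 127, 137 and 198 barcodes. In counts per library scaled to a common total (CPM), the Y-linked gene Ddx3y stood at 0, 97.8 and 0.019 and the female-expressed Xist at 1744, 0.242 and 1450, so genotype and sex cannot be told apart. Wwtr1 stood at 125, 11.7 and 113 CPM over the cells that passed the filters, doublets included. Its knockout level was the lowest of the 3 in each of the 8 classes described here. Yap1 stood at 77.9, 40.8 and 63.1 CPM over the same filtered cells. It was at 109, 19.6 and 76.5 CPM in keratinocyte-like, 90.1, 35.7 and 58.0 CPM in lymphatic endothelial-like and 58.7, 52.2 and 50.9 CPM in fibroblast-like cells. The deleted exons are not stated in the labels, so 3' reads of either gene may lie outside them.

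Clusters were named from marker lists, and 8 classes had at least 50 cells in every library. Fibroblast-like cells numbered 2541, 189 and 339. The other 7 classes were dermal papilla or sheath-like (212, 928 and 1151), pericyte or smooth muscle-like (399, 985 and 333) and lymphatic endothelial-like cells (541, 55 and 517), with vascular endothelial-like (633, 1744 and 363), Schwann-like (606, 659 and 193), T, NK or innate lymphoid (lymphoid-like; 1186, 75 and 308) and keratinocyte-like cells (2850, 121 and 1981). No marker of a class was at 0 in its own class in any library, but markers of other classes seldom were either. Markers at 2 times their whole-library level or more numbered 9, 11 and 3 of 11 in keratinocyte-like cells. They numbered 9, 5 and 8 of 9 in pericyte or smooth muscle-like and 7, 7 and 8 of 8 in dermal papilla or sheath-like cells. In the other classes all markers reached that level. A further 1046, 3828 and 4922 cells stayed unnamed. Some classes drew on different clusters in different libraries: 1658 of the 1744 knockout vascular cells were in a cluster led by Selp, Sele and Lrg1 with no young control cell, and 919 of the 928 knockout dermal papilla or sheath cells were in a cluster apart from the one that held the controls.

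Levels are CPM of the UMIs summed over a class in a library, with exact 95% Poisson intervals in brackets. They are 3' counts with no length scaling, so levels are compared between classes within a gene. With 1 library per group there is no replicate and no test, and all intervals cover counting error only. RNA released from broken cells also enters droplets. Its level in a class was estimated from markers of other classes, and a level is called above free RNA when its lower bound is at least 2 times that estimate. Of 216 gene, class and library combinations, 153 were above it.

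The 3 ligands had different leading classes. Tgfb1, the ligand made by many immune cells, was highest among the 8 classes in lymphoid-like cells, at 267 [251 to 285], 222 [174 to 279] and 217 [193 to 243] CPM. It was next highest in lymphatic endothelial-like cells, at 223 [208 to 240], 113 [85.2 to 148] and 106 [89.6 to 124] CPM. These were the first and second classes in every library, although their ranges over the libraries overlapped. In the young control, macrophage-like (293 CPM) and mast-like cells (298 CPM) were as high as the lymphoid class. Schwann-like cells were lowest in all 3 libraries, from 29.2 to 40.0 CPM, none above free RNA.

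Tgfb2, the ligand with a known role in hair follicle formation, was highest in fibroblast-like cells in every library. Its levels there were 399 [389 to 409], 239 [213 to 267] and 215 [196 to 236] CPM. Dermal papilla or sheath-like cells, the mesenchyme of the hair follicle, reached 395 [375 to 415] CPM in young control skin, but only 51.8 [44.5 to 59.9] CPM in knockout cells and 134 [123 to 145] CPM in old skin. The fibroblast and follicle classes were thus level in the young control and apart in both other libraries. Lymphoid-like cells were lowest, at 18.5, 3.0 and 6.49 CPM, all within the free RNA estimate.

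Tgfb3 was highest in pericyte or smooth muscle-like and lymphatic endothelial-like cells. The lymphatic class held 73.1 [64.3 to 82.6], 75.6 [53.0 to 105] and 80.8 [66.8 to 96.8] CPM, and these intervals overlap. The mural class held 119 [105 to 135], 66.4 [57.2 to 76.7] and 49.8 [35.4 to 68.1] CPM. Within the mural class the level followed the cluster. The cluster led by Rgs5, a pericyte gene, held 160, 137 and 127 CPM, while the cluster led by Myh11, a smooth muscle myosin, held 40.3, 52.4 and 25.2 CPM. All other classes stayed at or below 38.2 CPM.

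**Figure D1:**
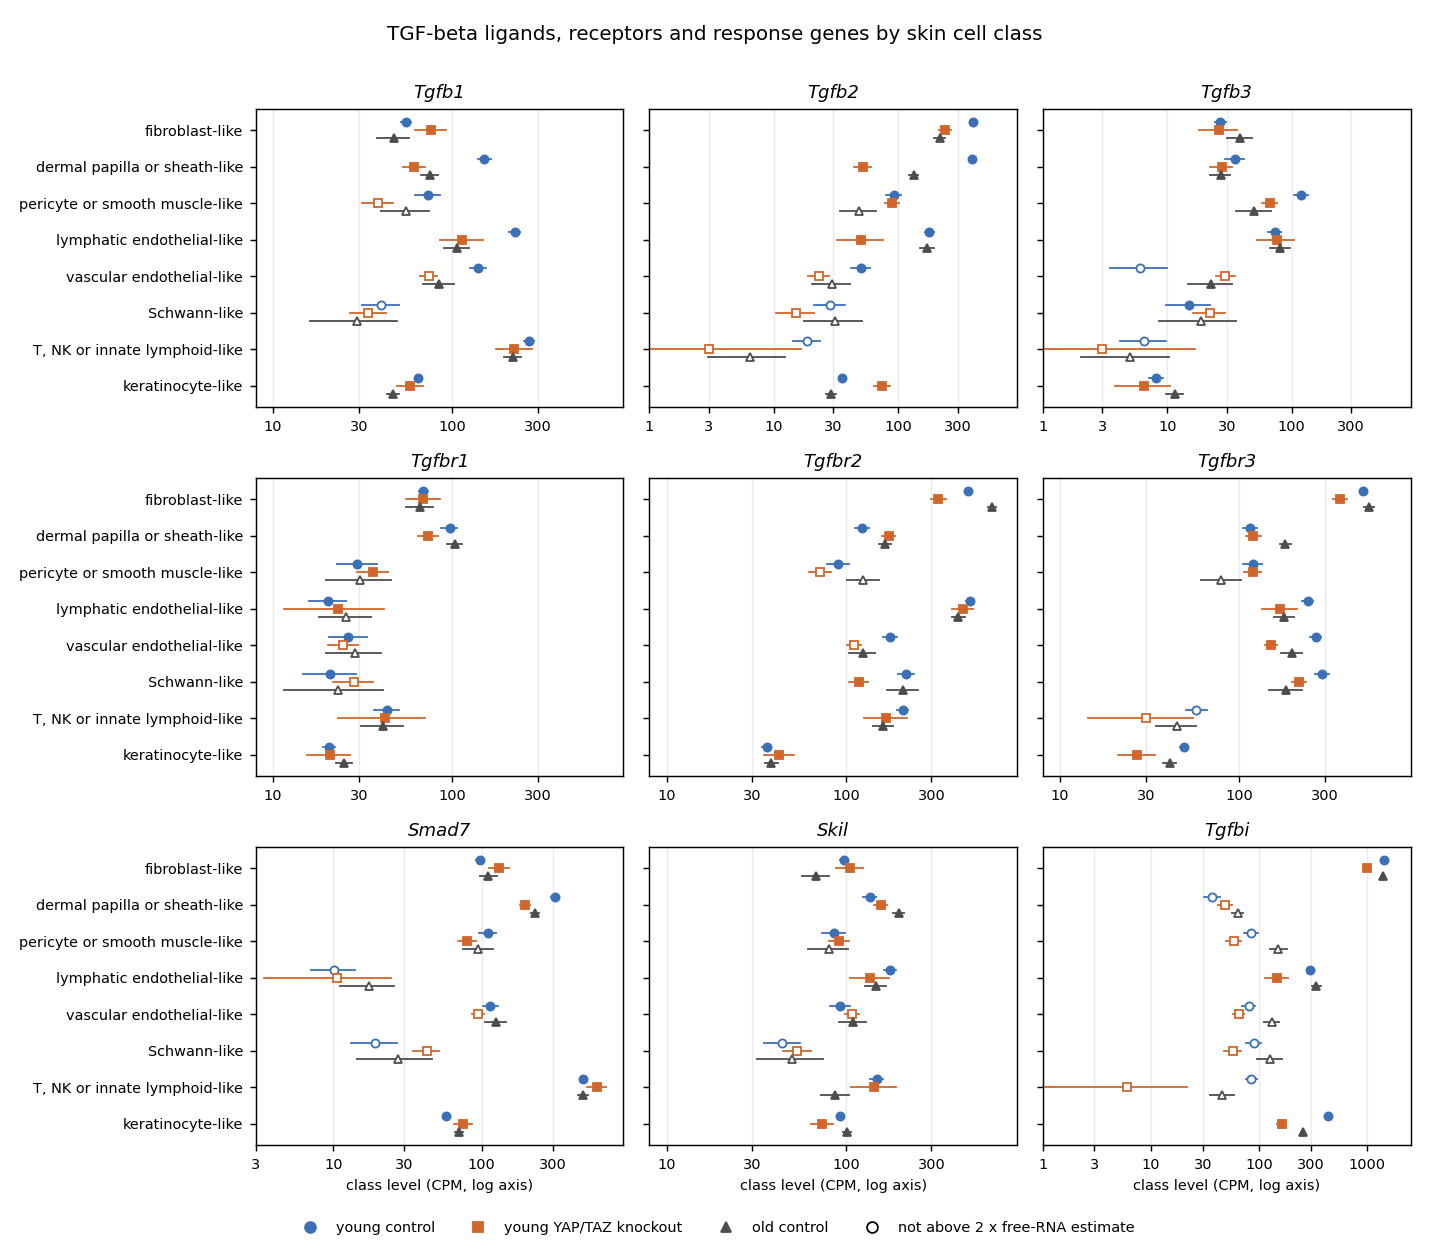
Level of each gene (CPM, log axis) in 8 cell classes of the young control, YAP/TAZ knockout and old control libraries, with exact 95% Poisson intervals (cut at the axis edge where wider). Open markers are levels not above free RNA; Tgfb2 in the dermal papilla or sheath-like class spreads from 51.8 to 395 CPM, while Tgfbr1 keeps nearly the same level in each class across libraries.

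No receptor gene was past the size rule in any class as summed. Tgfbr1, the type I receptor kinase, had the same 4 leading classes in the same order in all libraries. Dermal papilla or sheath-like cells held 96.5, 73.4 and 103 CPM, fibroblast-like cells 69.0, 68.8 and 66.0 CPM, lymphoid-like cells 43.1, 42.0 and 41.1 CPM, and mural cells 29.5, 35.9 and 30.6 CPM. In their ranges over the libraries, no class of these 4 overlapped the next in the order. Counting intervals did overlap in places, as between dermal papilla or sheath-like [64.7 to 83.0] and fibroblast-like cells [55.1 to 84.9] of the knockout. Those of mural [19.6 to 45.6] and vascular endothelial-like cells [19.7 to 40.2] overlapped in the old control, where neither level was above free RNA. The remaining 4 classes, between 20.2 and 28.6 CPM, had overlapping ranges. Mast-like cells, measured in the young control only, held 154 CPM [118 to 197].

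Tgfbr2, the type II receptor that binds ligand first, was highest in fibroblast-like and lymphatic endothelial-like cells. Fibroblast-like cells held 477 [466 to 488], 328 [297 to 361] and 655 [620 to 691] CPM, and lymphatic cells held 490 [467 to 514], 450 [391 to 514] and 424 [391 to 459] CPM. The fibroblast intervals did not overlap, with the knockout lowest and the old control highest. Keratinocyte-like cells were lowest in every library, from 36.1 to 42.6 CPM. Tgfbr3 encodes betaglycan, a co-receptor that presents TGF-beta2 to the type II receptor. It too was highest in fibroblast-like cells, at 487 [476 to 498], 365 [333 to 400] and 529 [498 to 562] CPM, and lowest in keratinocyte-like cells, from 26.8 to 49.2 CPM.

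Among the response genes, Smad7 encodes an inhibitory Smad that is induced by the pathway and blocks the type I receptor. It was highest in lymphoid-like cells, at 483 [461 to 506], 594 [514 to 682] and 480 [444 to 518] CPM. Dermal papilla or sheath-like cells came second in every library, at 312, 195 and 227 CPM. Lymphatic endothelial-like cells were last, at 10.1, 10.5 and 17.3 CPM, with none of the 3 above free RNA, beside vascular endothelial-like cells at 114, 94.2 and 124 CPM, of which the knockout value was not above free RNA. The 2 endothelial classes therefore lay far apart for Smad7, with no overlap of their ranges. Skil, which encodes SnoN, a repressor of Smad-driven transcription, ran from 44.1 CPM in Schwann-like cells to 197 CPM in dermal papilla or sheath-like cells, and neighbours in the order of the first 7 classes overlapped.

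Tgfbi, an extracellular matrix protein named for its induction by TGF-beta, was highest in fibroblast-like cells, at 1425, 993 and 1398 CPM. Keratinocyte-like cells held 430 [423 to 437], 162 [147 to 178] and 252 [244 to 260] CPM, and lymphatic endothelial-like cells 296, 145 and 338 CPM. Macrophage-like cells of the young control held 743 CPM. In the other 5 classes no level was above free RNA in any library, so the 36.5 to 151 CPM found there, and the 6.0 CPM of the knockout lymphoid class, are not read as expression.

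The knockout and the old control were each set against the same young control, so both comparisons share it. A gene was past the size rule in a class when it averaged 20 CPM or more over the 3 libraries, differed by 2-fold or more (a ratio of 2 or above, or 0.5 or below), and kept a difference over 1.5-fold at the end of the exact 95% interval closest to 1. In the knockout over young control comparison 8 of 66 measured gene and class pairs were past the rule (12.1%), against 9.08% of 50175 pairs over all genes. Of the 66 pairs, 7 were lower (10.6%, against 5.34% over all genes) and 1 was higher (1.52%, against 3.74%). In the old over young control comparison 4 of 66 pairs were past it, all lower (6.06%, against 2.97% of all genes lower, 2.53% higher and 5.49% in either direction). The either-direction shares lie near those of all genes, and the lower shares above them. The knockout count of 8 became 13 with doublets kept, 15 with each library clustered alone and 16 with at most 10% mitochondrial UMIs, and the old count of 4 became 7 with doublets kept. Of the pairs past the rule, 7 of 8 and 4 of 4 were above free RNA in the library where they were higher.

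**Figure D2:**
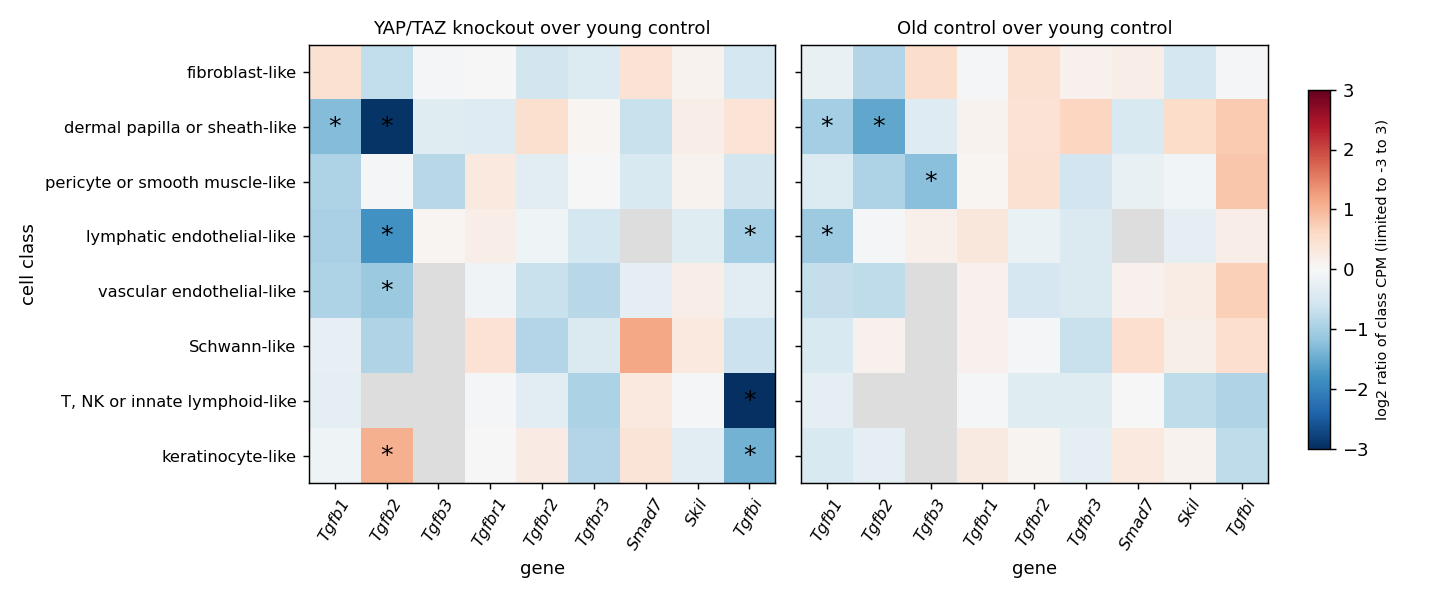
Log2 ratio of class CPM for each gene and class in the knockout (left) and the old control (right) over the young control, with colours limited to -3 to 3; grey cells fell under 20 CPM and stars mark pairs past the size rule. Stars gather in the Tgfb2 and Tgfbi columns on the left and mark 4 ligand pairs on the right.

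Dermal papilla or sheath-like cells had the lowest ratio of those above free RNA. Tgfb2 was at 0.131 of the young control [0.112 to 0.153] in knockout cells and at 0.338 [0.307 to 0.373] in old skin. The counts behind these were 1527, 180 and 568 UMIs. Tgfb1 was at 0.407 [0.346 to 0.477] and 0.497 [0.432 to 0.571] there, with levels of 151, 61.3 and 74.8 CPM. So 2 of 9 measured genes were lower in the class in each comparison, where 9.78% and 4.66% of all genes were past the rule. Tgfb3 and the 3 receptors were within it, and Smad7 was at 0.626 and 0.728. Knockout cells came from a cluster of their own (Crabp1, Slc26a7 and Dkk2 as leading genes, as in the controls' cluster), so no ratio within 1 cluster could be had for the knockout. Markers of other classes stood at 11.8%, 29.5% and 25% of their library levels in this class, and the summed level of 9 pericyte or smooth muscle markers was 290, 1606 and 413 CPM, none at 0. Their part in the result was not tested. With the free RNA estimate subtracted, both Tgfb2 ratios stayed past the rule.

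In lymphatic endothelial-like cells of the knockout, Tgfb2 was at 0.283 [0.180 to 0.426] and Tgfbi at 0.490 [0.378 to 0.625] of the young control. Here 2 of 8 measured genes were lower, against 4.87% of all genes past the rule. The class had 55 knockout cells and 24 Tgfb2 UMIs in them. In the old control Tgfb2 was level with the young control (171 against 178 CPM), whereas Tgfb1 was at 0.473 [0.395 to 0.564], the 1 gene of 8 past the rule beside 4.93% of all genes. All lymphatic cells were in 1 cluster. Markers of other classes stood at 11.8%, 8.16% and 29.9% of their library levels in this class. The 11 keratinocyte markers summed to 1554, 185 and 5478 CPM, with 1 at 0 in the knockout. Their part in the result was not tested.

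In vascular endothelial-like cells Tgfb2 was at 0.461 [0.353 to 0.602] in the knockout, 1 of 8 measured genes beside 15% of all genes. The knockout level of 23.0 CPM equalled the free RNA estimate. In the cluster led by Fabp4 and Cd36, capillary genes, which held cells of all libraries, Tgfb2 stood at 54.7 CPM in the young control and 43.2 CPM in the old control. No Tgfb2 UMI was found in its 77 knockout cells. Against a floor of 3 counts in that cluster's sum the knockout level was 6.94-fold lower, without the counting error of the young control. Without the Selp, Sele and Lrg1 cluster, a setting chosen after the data were seen, Tgfbr3 (0.491) and Tgfbi (0.0870) also passed the rule, although the class level of Tgfbi was not above free RNA in any library. In the old control no gene of 8 was past it (9.29% of all genes). Tgfb3 was not among these 8 genes because its mean of 19.3 CPM was under the 20 CPM limit. Its levels were 6.09, 29.2 and 22.6 CPM, of which only the old control value was above free RNA. The Tgfb3 ratios, 4.80 [2.85 to 8.65] for knockout cells and 3.70 [1.91 to 7.39] for old skin, met the rule's other conditions.

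In keratinocyte-like cells Tgfb2 was the one gene higher in the knockout, at 74.4 CPM against 35.6 CPM (ratio 2.09 [1.78 to 2.43]), while Tgfbi was lower, at 0.376 [0.341 to 0.414]. These were 2 of 8 genes, against 7.88% of all genes. The 121 knockout cells were mostly in a cycling cluster and in a cluster led by Lhx2 and Krt6a, hair follicle keratinocyte genes. In the Lhx2 cluster Tgfb2 was at 1.22 [0.939 to 1.56] and Tgfbi at 0.564 [0.451 to 0.698]. In the cycling cluster they were at 1.73 [1.22 to 2.45] and 0.449 [0.383 to 0.525]. The Tgfb2 call was lost when clusters were weighted as in young control skin (1.27), and when leaving out the cluster led by Ccl27a and Fst, which gave 52 of the 194 knockout UMIs (1.64, chosen after the data were seen). No gene of 8 was past the rule in old keratinocyte-like cells, beside 1.53% of all genes.

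In pericyte or smooth muscle-like cells Tgfb3 was at 0.419 [0.291 to 0.589] in the old control, 1 of 9 genes beside 8.8% of all genes. Within the Rgs5 cluster its ratio was 0.794 [0.498 to 1.21]. Markers of other classes stood at 15.9%, 35.0% and 45.2% of their library levels in this class. The 11 keratinocyte markers summed to 2032, 976 and 6853 CPM and the 6 lymphatic markers to 139, 148 and 618 CPM, none at 0, and their part in the result was not tested. Young control cells of the class were mainly in the Rgs5 cluster (323 cells, with 45 in the old control), and old cells in the Myh11 cluster (288, with 76 in the young control). With the young control's cluster mix the ratio was 0.775, and with each library clustered alone it was 1.02. No gene of 9 was past the rule in the knockout (9.72% of all genes).

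In lymphoid-like cells Tgfbi was at 0.0709 in the knockout, from 2 UMIs against 310, the 1 gene of 7 past the rule beside 6.34% of all genes. The class level was at the free RNA estimate in every library (84.5 beside 87.1 CPM, 6.0 beside 10.0 CPM and 45.4 beside 44.3 CPM), and Tgfbi in the whole library was 500, 128 and 275 CPM. No gene of 7 was past the rule in old lymphoid cells (7.34% of all genes). Schwann-like cells had none of 8 in either comparison, beside 9.22% and 3.21% of all genes.

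In fibroblast-like cells none of the 9 genes was past the size rule in either comparison, beside 9.48% of 6213 genes for the knockout and 3.98% for old skin. Over all genes of this class the split was 337 higher and 252 lower for the knockout and 111 and 136 for old skin, and it turned to 229 and 324, and to 85 and 159, with TMM scaling, which shifted log2 ratios by -0.17 and -0.08. Tgfb2 had the lowest ratio, at 0.599 [0.532 to 0.673] in knockout cells and 0.540 [0.489 to 0.595] in old skin. In the knockout Tgfbr2 was at 0.688 [0.622 to 0.759], Tgfbi at 0.697 [0.658 to 0.738] and Tgfbr3 at 0.750 [0.681 to 0.824], while Tgfb1 was at 1.37 [1.10 to 1.70] and Smad7 at 1.35 [1.14 to 1.59]. In the old control Tgfbr2 was at 1.37 [1.29 to 1.46], Tgfb3 at 1.43 [1.11 to 1.83] and Skil at 0.699 [0.583 to 0.833]. Tgfbr1 was at 0.998 and 0.957. When every cell had equal weight, a setting added after the data were seen, Tgfb2 in old skin passed the rule (0.471 [0.427 to 0.519]). The counting intervals of several genes thus excluded 1 at ratios within 2-fold.

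The fibroblast-like class was made of 4 clusters whose shares differed between libraries. The cluster led by Col1a2 held 67.8%, 41.3% and 61.1% of the class, the Coch cluster 12.0%, 36.0% and 19.8%, the Sfrp5 cluster 6.41%, 21.2% and 14.2% and the Gpx3 cluster 13.8%, 1.59% and 5.01%. With clusters weighted as in young control skin, and the Gpx3 cluster left out of the knockout comparison for its 3 knockout cells, the knockout ratios were 0.959 for Tgfb2, 0.993 for Tgfbi, 0.884 for Tgfbr2 and 0.491 for Tgfb3, none past the rule. In old skin Tgfb2 was at 0.528 and Tgfbr2 at 1.41 with that weighting. In the cluster led by Col1a2, Col1a1 and C3, Tgfb2 was level in the knockout (470 against 477 CPM, ratio 0.986 [0.866 to 1.12]) and lower in the old control (260 CPM, ratio 0.546 [0.489 to 0.607]). Tgfbi in that cluster was 1726, 1791 and 1790 CPM in the 3 libraries, a ratio of 1.04 in both comparisons. In the cluster led by Coch, Fmod and Igfbp2, Tgfbi was 593, 212 and 204 CPM, ratios of 0.358 [0.286 to 0.443] and 0.344 [0.273 to 0.430]. Tgfb2 there was 185, 111 and 163 CPM. In the cluster led by Sfrp5, a Wnt inhibitor gene, 18 Tgfb2 UMIs were found in the young control and none in the knockout or the old control. Against a floor of 3 counts these were 3.18-fold and 1.68-fold lower, without the counting error of the 18 UMIs. The Coch cluster held 305, 68 and 67 cells, and these clusters were looked at after the class values were seen.

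**Figure D3:**
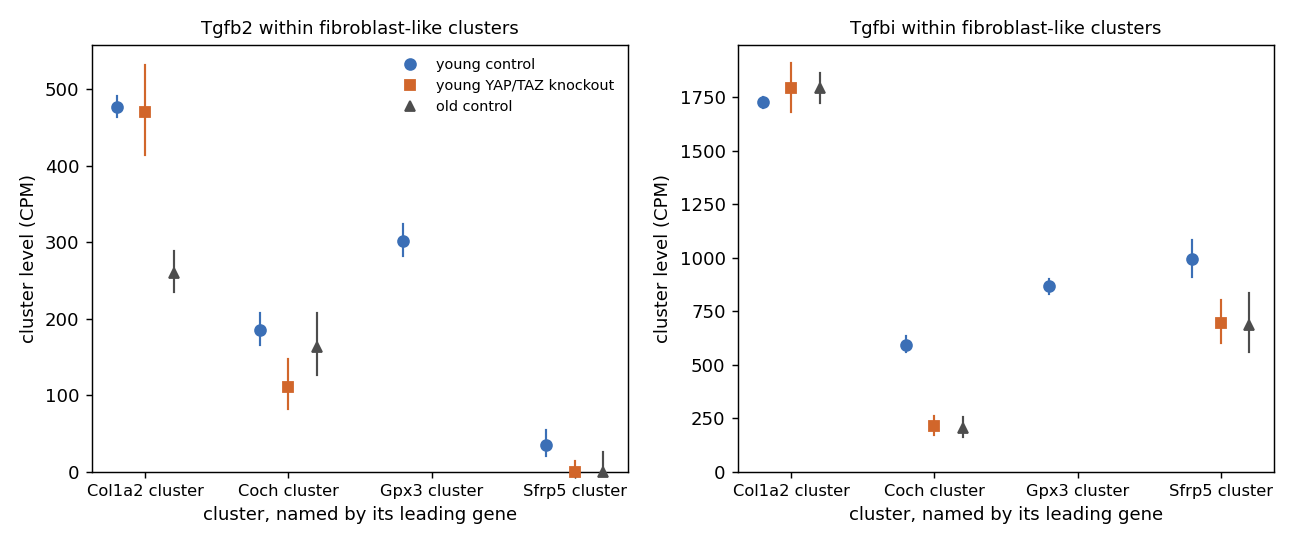
Level (CPM) of Tgfb2 (left) and Tgfbi (right) in the 4 fibroblast-like clusters of each library, with exact 95% Poisson intervals; clusters with under 30 cells in a library have no point. In the Col1a2 cluster Tgfbi lies at 1726 to 1791 CPM in all libraries, and in the Coch cluster the young control (593) lies above the knockout (212) and the old control (204).

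The other genes of the pathway were described from 4 lists. Of 12 genes of ligand storage and activation, 9 were measured in fibroblast-like cells and none was past the rule in either comparison. Their median log2 ratio was 0.04 for the knockout and -0.00 for old skin, beside 0.18 and 0.04 over all genes. Of 11 Smad proteins and Smad regulators, 8 were measured and none was past it (medians 0.08 and -0.18). Of 8 other receptors and receptor regulators, 6 were measured and Cd109, a co-receptor that promotes TGF-beta receptor breakdown, was higher, at ratios of 2.30 [1.71 to 3.06] and 2.04 [1.58 to 2.61]. Over all genes of the class 5.42% and 1.79% were higher.

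Many genes of a list of other TGF-beta-induced genes were lower in knockout fibroblast-like cells, and also in old fibroblast-like cells. Of 19 genes 16 were measured. In the knockout 8 were lower and 2 higher, with a median log2 ratio of -0.70, beside 4.06% of all genes lower and 5.42% higher. In the old control 6 were lower and 1 higher, with a median of -0.63, beside 2.19% of all genes lower and 1.79% higher. The fibrillar collagen genes Col1a1, Col1a2 and Col3a1 were at 0.365, 0.330 and 0.436 of the young level in knockout cells and at 0.255, 0.308 and 0.224 in old skin. Lox, which encodes the enzyme that cross-links collagen, stood at 341, 117 and 139 CPM. Fn1, the gene of fibronectin, was at 0.315 in knockout cells and, within the rule, at 0.688 in old skin. The elastin gene Eln was at 0.450 and 0.324. With clusters weighted as in young control skin, a count added after the data were seen, 7 genes were lower and none higher in the knockout, and 6 lower and none higher in old skin. Col3a1 in the knockout, Spp1 in both comparisons and Tagln in the knockout were then within the rule. Lower values were not limited to fibroblast-like cells. In old skin 6 of 14 list genes were lower in Schwann-like (1.87% of all genes) and 5 of 9 in lymphoid-like cells (4.05%). Pericyte or smooth muscle-like cells had 6 of 14 lower and 1 higher (5.27% of all genes lower). Keratinocyte-like cells had 3 of 11 lower (0.798%). Vascular endothelial-like cells had none of 14 lower and 1 higher. Dermal papilla or sheath-like and lymphatic cells had 2 each way.

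Ctgf encodes a matrix-associated protein and is widely used as a readout of TGF-beta and of YAP/TAZ activity. It was at 147, 49.0 and 99.8 CPM, past the rule in the knockout (0.33) and within it in the old control (0.678). Postn, the gene of the matrix protein periostin, was at 0.438 and 0.453. Ctgf and Postn are named although their values were known. Spp1 (3.44 and 2.68) and, in the knockout, Tagln (3.01) were higher. The list shares Col1a1, Col1a2 and Col3a1 with the 8 fibroblast markers, whose summed level was 87401, 41182 and 52326 CPM, and Acta2 with the pericyte or smooth muscle markers, whose sum in fibroblast-like cells was 229, 424 and 150 CPM with none at 0. The part of marker levels in the list's values was not tested.

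**Figure D4:**
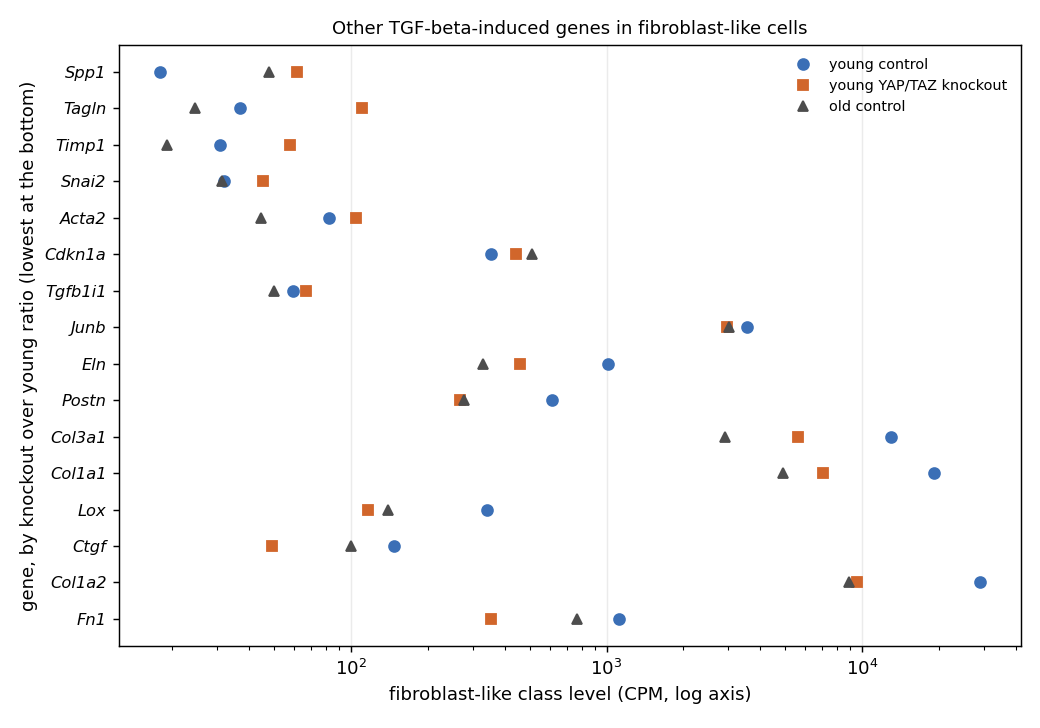
Level (CPM, log axis) of the 16 measured genes of the TGF-beta-induced list in fibroblast-like cells of each library, ordered by the knockout over young control ratio. Fn1, Col1a2, Ctgf and Lox lie lowest in that order and Spp1 and Tagln highest; Tgfb1i1, Snai2 and Junb lie close together in all libraries.

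In keratinocyte-like cells of the knockout, 4 of 11 measured induced genes were lower and none higher, beside 5.21% of all genes lower and 2.67% higher (median log2 -0.52, beside -0.11 over all genes). They were Fn1 (0.17) and the 3 collagen genes, which are themselves among the 8 fibroblast markers. The summed level of the 8 fibroblast markers in this class was 889, 183 and 524 CPM, none at 0, and their part in the result was not tested. Thbs1, the gene of the latent TGF-beta activator thrombospondin-1, was lower (0.49), and Bambi, the gene of a decoy receptor, was higher (2.15). Thbs1 was the 1 gene past the rule of 7 measured for ligand storage and activation. Bambi was the 1 of 3 measured among other receptors and receptor regulators. In vascular endothelial-like cells of the knockout, Itgb8, the gene of an integrin subunit that frees latent TGF-beta, was at 57.6 against 7.61 CPM (7.57), and Thbs1 was at 2.36. Nrros, which encodes a protein that anchors latent TGF-beta1 on myeloid cells, was lower (0.40). So 2 of 10 measured genes of ligand storage and activation were higher and 1 lower, beside 5.69% and 9.32% of all genes. Of 14 measured induced genes 4 were higher, Acta2, Tagln, Spp1 and Tgfb1i1, and 2 lower, Eln and Snai2, beside 5.69% of all genes higher and 9.32% lower. The 9 pericyte or smooth muscle markers summed to 655, 3859 and 949 CPM in this class, and markers of other classes stood at 16.6%, 56.4% and 33.6% of their library levels. Their part was not tested.

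Genes with the pattern most like each of the 9 were sought over 12 classes of the young control library, among 6932 genes, by Pearson correlation of log2 levels, a description over points of 1 library with no p-value. Atf5 (r = 0.902) and Igsf10 (0.899) were among the 3 most like Tgfb2. Gas6 (0.931), Rnase4 and Ang were most like Tgfbi. Crlf2 (0.935), Tomm34 and Srsf2 were most like Tgfb1, Slc25a4 (0.893), Neo1 and Khdrbs3 most like Tgfb3, and Lemd2 (0.919), Pde4d and Xylt1 most like Tgfbr1. Lasp1 (0.908), Sdf4 and Fndc1 were most like Tgfbr2, and Plpp3 (0.916), Pam and Amotl2 most like Tgfbr3. Tcf7 (0.852), Socs1 and Smad3 were most like Smad7, and Stat3 (0.870), Aprt and Tbc1d16 most like Skil. With Spearman's rank correlation 10 of the 27 genes found this way were again among the 3 most alike.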

How the data were processed

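The 3 libraries were droplet 3' libraries (10x Genomics), per the labels' protocols. The authors deposited raw UMI counts for each gene and barcode; Cell Ranger 3.1.0, Seurat 3.1.5 and the build mm10 are named per the submitters' processing notes, and the selection of barcodes is not stated there.

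Cells entered with a minimum of 500 genes and 1000 UMIs and no more than 15% mitochondrial UMIs. Scrublet's automatic threshold marked 2.82%, 0% and 0.00828% in the young control, knockout and old control, so it had not worked, and in each library the 8% that scored highest were left out. All 3 libraries were clustered jointly (scanpy 1.11.5, 2000 variable genes, 30 principal components, 20 neighbours, Leiden resolution 1), with the 9 genes kept out. Of 39 clusters 27 were named from marker lists. The others stayed unnamed because markers of another class were above library level (7 clusters), mixed (2), without margin (2) or led by another class (1). The naming thresholds and the 8% were chosen with the cluster tables in view. Named classes were rebuilt here and may differ from the study's.

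Counts were summed per class and library. Intervals are exact 95% Poisson intervals for levels and exact binomial-split intervals for ratios, and cover counting error only. The ratio intervals were tried on counts simulated from the Poisson model they assume. That trial cannot show how they hold for real cells. Free RNA was estimated as the median level of other classes' markers in a class, relative to the whole library, times the gene's library level. Log2 ratios had 0.5 added to each count. Pathway genes were named when past the size rule, up to 4 highest and 4 lowest per list in fibroblast-like, keratinocyte-like and vascular endothelial-like cells, and others only where stated. 1 gene of the list of TGF-beta-induced genes is not reported here, and it was left out of that list's counts. The 9 genes, the lists and the tests were chosen with earlier results of these data known. Alternatives included TMM factors (edgeR 4.0.16) and 11 others, plus settings added later.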

Additional observations from a re-analysis of the deposited data

Results flagged for a closer look

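Tgfb2 differed in direction between cell classes in the knockout. Its ratio to the young control was 2.09 in keratinocyte-like cells, past the size rule upwards, and 0.131 in dermal papilla or sheath-like, 0.283 in lymphatic endothelial-like and 0.461 in vascular endothelial-like cells, past it downwards. The keratinocyte call was lost with clusters weighted as in young control skin (1.27) and without a cluster that held 9 knockout cells (1.64), and in the Lhx2 cluster the ratio was 1.22 [0.939 to 1.56]. The vascular knockout level of 23.0 CPM equalled the free RNA estimate. The difference between classes was not tested, since each group was 1 library.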

How the results depend on the processing

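The 12 gene and class pairs past the size rule were recomputed under up to 12 alternatives, and 3 stayed past it in each one that gave a value: Tgfb2 in dermal papilla or sheath-like cells in the knockout (0.117 to 0.156) and in the old control (0.285 to 0.395), and Tgfbi in lymphoid-like cells in the knockout (0 to 0.0771), where its level was at the free RNA estimate. Tgfb3 in old pericyte or smooth muscle-like cells turned to 1.02 with each library clustered alone. The other 8 kept their direction, and each was within the rule in at least 1 alternative. The number of pairs past the rule in the knockout was 8, and 13 with doublets kept, 16 with at most 10% mitochondrial UMIs, 15 with each library clustered alone and 11 with the young control's cluster mix. In the old control it was 4, and 7 with doublets kept. Over all genes in fibroblast-like cells, the knockout's 589 became 979 with a filter of 5 CPM, 1232 with none and 370 with cells thinned to 1500 UMIs, and the old control's 247 became 464 and 651 with those filters. The knockout split of 337 higher and 252 lower became 229 and 324 with TMM factors (a median shift of -0.17 on the log2 scale) and 238 and 308 with median-of-ratios factors. The likeness list kept 10 of 27 genes with Spearman's correlation. The causes were not tested. With cells weighted equally, added after the data were seen, all 12 pairs stayed past the rule, and Tgfb2 in old fibroblast-like cells (0.471) and Tgfbi in old lymphoid-like (0.428) and pericyte or smooth muscle-like cells (2.00, both levels near free RNA) joined them. No paired analysis was possible because each group was 1 library and the labels give no replicate numbers. Low-level classes were limited by depth: 55 knockout lymphatic cells and 75 lymphoid cells.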
